A study of Mus musculus with 58 samples.

Results

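The core circadian clock genes Arntl (also written Bmal1), Clock, Npas2, Per1, Per2, Per3, Cry1, Cry2, Nr1d1 and Nr1d2 were followed in lung, liver and forestomach of mice that had been dosed with BaA, short for benz(a)anthracene, one of the polycyclic aromatic hydrocarbons. They were chosen by name, as the activators and repressors of the clock, and each is represented by 1 probe, so that they are 10 of the 20018 genes with a symbol, on an array of 55681 gene probes. The study asked how each tissue responds to BaA. The mice were male Muta™Mouse, a transgenic line that carries a bacterial lacZ reporter for scoring mutations, aged about 10 weeks and housed singly under a cycle of 12 h light and 12 h dark. All groups, controls included, carried the transgene and were gavaged with olive oil every day for 28 days. The daily dose of BaA was 0 in D0, 20 in D1, 40 in D2 and 80 in D3, in mg per kg of body weight (mg/kg-bw/day). Tissues were frozen 72 h after the last dose, and the hour of the day at which each mouse was killed is not given in the sources used here, so no value below is adjusted for it. In all, 58 two-colour arrays from 20 mice were used. Each dose group was represented by 5 lungs, by 5 livers except for 4 at D3, and by 5 forestomachs except for 4 at D0. Mouse 20 has no liver array here and mouse 5 no forestomach array. Mice 1 to 5 belonged to D0, 6 to 10 to D1, 11 to 15 to D2 and 16 to 20 to D3, and tissues with one mouse number came from one animal. Every value is on the log2 scale, as the Cy5 signal of the tissue over the Cy3 signal of a reference RNA pooled from mouse cell lines. Each array holds 1 tissue of 1 mouse.

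In mammalian cells the clock is a feedback loop of transcription that runs through a cycle about once a day. ARNTL pairs with CLOCK or NPAS2 and activates genes that carry E-box sequences, among them the Per and Cry genes, whose proteins build up and shut that activation off. The nuclear receptors encoded by Nr1d1 and Nr1d2, themselves driven through E-boxes, repress Arntl, so that in most tissues the mRNA of Arntl peaks at about the opposite time of day to that of the Per and Nr1d genes.

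Because the members are read through short sequence elements, the 250 bases before the transcription start are shown for 6 of them, with every match in capitals. The sequences are RefSeq's on the mouse build GRCm38.p6, which held starts for 9 of the 10 members, 13 starts in all. Per2 has no entry in that table. The letters searched on both strands were CACGTG (the E-box) and CACGTT (an E-box variant called E-prime). Also searched were TTATGTAA and AGGTCA. TTATGTAA is a form of the D-box, bound by factors of the clock's output. AGGTCA is the half-site of ROR elements, which NR1D1 and NR1D2 also bind. Per1 and Cry1 show the E-box letters, Cry1, Cry2 and Nr1d1 the E-prime letters, Per3 the D-box letters TTATGTAA and Nr1d2 the half-site.
Per1, chr11:69098699-69098948, plus strand: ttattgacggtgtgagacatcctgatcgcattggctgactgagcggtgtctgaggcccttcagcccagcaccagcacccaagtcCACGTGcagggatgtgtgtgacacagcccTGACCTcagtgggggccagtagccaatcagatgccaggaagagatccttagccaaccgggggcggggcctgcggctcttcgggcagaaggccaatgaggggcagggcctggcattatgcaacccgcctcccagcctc
Cry1, chr10:85185055-85185304, minus strand: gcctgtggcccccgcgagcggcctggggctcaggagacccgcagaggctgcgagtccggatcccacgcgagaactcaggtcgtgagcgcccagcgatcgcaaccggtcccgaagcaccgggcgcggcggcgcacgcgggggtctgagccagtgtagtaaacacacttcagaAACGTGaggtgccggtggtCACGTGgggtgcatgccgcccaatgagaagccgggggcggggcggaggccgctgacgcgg
Cry2, chr2:92434070-92434319, minus strand: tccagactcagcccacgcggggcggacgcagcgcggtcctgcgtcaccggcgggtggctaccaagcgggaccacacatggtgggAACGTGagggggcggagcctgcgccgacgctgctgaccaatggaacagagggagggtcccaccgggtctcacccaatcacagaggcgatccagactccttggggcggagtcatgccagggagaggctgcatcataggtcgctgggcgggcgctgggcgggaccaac
Nr1d1, chr11:98775378-98775627, minus strand: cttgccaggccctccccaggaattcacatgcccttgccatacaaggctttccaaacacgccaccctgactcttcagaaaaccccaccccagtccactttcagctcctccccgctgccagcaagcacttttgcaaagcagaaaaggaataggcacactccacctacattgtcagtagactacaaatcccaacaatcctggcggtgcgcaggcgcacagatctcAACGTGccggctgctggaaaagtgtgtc
Per3, chr4:151044666-151044915, minus strand: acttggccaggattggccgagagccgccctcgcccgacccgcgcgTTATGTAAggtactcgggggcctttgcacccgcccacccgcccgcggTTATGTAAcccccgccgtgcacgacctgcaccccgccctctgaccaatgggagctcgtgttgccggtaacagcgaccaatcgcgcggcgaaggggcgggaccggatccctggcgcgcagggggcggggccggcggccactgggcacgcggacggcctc
Nr1d2, chr14:18239107-18239356, minus strand: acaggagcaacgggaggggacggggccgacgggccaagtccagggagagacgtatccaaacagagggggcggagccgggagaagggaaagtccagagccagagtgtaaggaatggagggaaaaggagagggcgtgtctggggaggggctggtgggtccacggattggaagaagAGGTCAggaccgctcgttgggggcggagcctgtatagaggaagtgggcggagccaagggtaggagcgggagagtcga
The E-box was found before a start of Per1 and of Cry1 and before 6.02% of all 32851 starts in the table. The E-prime letters were found in Cry1, Cry2 and Nr1d1, each time on the other strand, and before 3.85% of all starts. The exact D-box letters TTATGTAA were found in Per3 alone among the members, in 2 copies, and before 0.819% of all starts. Other spellings of the D-box were not searched, so members without these letters may still hold one. The half-site was found in Nr1d2, on the other strand in Per1, at 1 start of Clock, and before 14.0% of all starts. The windows of Arntl and Npas2 held none of these letters. A match describes the sequence only and says nothing of what binds there.

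In every tissue 8 of the 10 members had enough signal to be tested, though not all of them on every array. Npas2, the partner that can stand in for CLOCK, and Cry1, a repressor that binds CLOCK and ARNTL, were near background. A probe was tested in a tissue when its Cy5 signal was well above background on at least 4 arrays. Npas2 met that on 1 of 20 lung arrays, 0 of 19 liver arrays and 11 of 19 forestomach arrays, and Cry1 on 3, 0 and 8. So 8 members were tested in lung and in liver and all 10 in forestomach. Arntl was above background on 17 of 19 liver arrays, Per3 on 12 of 19 liver and 15 of 19 forestomach arrays, and Per2 on 15 of 19 forestomach arrays. Every other member was above background on all arrays.

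The tissue labels were borne out by marker genes, but pieces of other tissue were present in some samples. The 5 lung markers were all above background on every lung array, and the 5 liver markers on every liver array. Squamous markers and skeletal muscle markers stood high in the lungs of D0 mouse 5 (means over the list of 4.64 and 5.83) and D3 mouse 16 (2.12 and 1.99), against at most 0.15 and 0.11 in the other lungs. Fat markers were at 6.53 in the lung of D2 mouse 14 and at most 2.79 in the other lungs. Forestomach samples ranged from 0.68 to 6.97 in the mean of the 5 glandular stomach markers, with all 5 D1 samples at 5.37 or more but 1 of the 4 D0 samples at 6.48 and the others at 1.28 or less. Fat markers in forestomach were at 4.96, 1.36, 5.34 and 5.78 in D0 and at 3.67, 3.37, 1.28, 1.91 and 1.07 in D3. The share of spots above background in Cy5 ran from 34.1 to 45.7% for livers, from 44.4 to 55.2% for lungs, and over a wider span of 38.4 to 69.2% for forestomachs. The called lung changes at D3 are also given without the lungs of mice 5 and 16. Some forestomach changes at D3 are also given with marker levels as covariates. The vehicle comparisons between tissues and most same-mouse relations below are given without such an adjustment. In tissue RNA, fewer cells of a type and less RNA per cell cannot be told apart.

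In vehicle mice Clock was higher in forestomach than in lung or liver, and Per2, Cry2 and Nr1d2 were lower there than in both. Each gene is compared with itself across tissues, as a log2 ratio to the same reference, by limma with Benjamini-Hochberg adjustment over all probes tested in both tissues. Clock, the histone acetyltransferase partner of ARNTL, was at 1.92 ± 0.18 (SD, n = 4) in forestomach, 1.00 ± 0.18 (n = 5) in lung and 0.54 ± 0.33 (n = 5) in liver. It was thus 1.89-fold lower in lung than in forestomach (adjusted p = 8.16e-05) and 2.61-fold lower in liver (adjusted p = 2.14e-08), while lung and liver differed by 0.46 log2 units, under the 1.5-fold minimum. Arntl stood at 0.57 ± 0.37 in forestomach, −0.03 ± 1.24 in liver and −0.26 ± 0.69 in lung, and none of its differences passed the test (adjusted p of 0.0932 or more). With the differences taken within each mouse, added after the data were seen, Arntl was lower (−0.86, adjusted p = 0.000424) and Per1 higher (1.19, adjusted p = 1.31e-06) in lung than in forestomach, and these were the calls it added.

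Among the repressors, Cry2 stood at 1.53 ± 0.21 in lung, 1.15 ± 0.37 in liver and 0.41 ± 0.24 in forestomach, and was higher in both other tissues than in forestomach (2.18-fold, adjusted p = 1.42e-07 for lung, and 1.67-fold, adjusted p = 0.000148 for liver). Nr1d2 ran from 1.55 ± 0.39 in liver over 1.15 ± 0.33 in lung to 0.30 ± 0.38 in forestomach, with liver and lung not separated (adjusted p = 0.0567). Per2 was 1.83-fold higher in lung and 2.17-fold higher in liver than in forestomach (adjusted p = 0.0047 and 0.000241), and Per3 1.5-fold higher in liver than in forestomach (adjusted p = 0.0101). Per1 was the one member that separated lung from liver, 2.75-fold higher in lung (adjusted p = 0.00453). Nr1d1, at 1.60 in liver, 1.33 in lung and 1.22 in forestomach, had no difference past the test.

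These counts have to be read against how much of the array differed between tissues. Of the 8 members tested, 1 differed between lung and liver, 4 between lung and forestomach and 5 between liver and forestomach, where 50.6%, 31.8% and 44.9% of all probes did. They also depended on the normalisation. With median centring in place of loess, the median of all probes moved to −0.68 for liver minus forestomach and −0.38 for lung minus forestomach, Clock and Arntl were then the called members in both (lower than in forestomach), and Cry2 and Per3 turned to −0.10 and −0.03 for liver minus forestomach. The higher Per1 in lung than in liver stayed called under that setting, at 1.54 (adjusted p = 0.0306). Npas2 was below background in all vehicle livers and above it in 3 of 4 vehicle forestomachs, so there is only a bound, at least 1.16-fold higher in forestomach on the normalised Cy5 channel. Cry1 was above background in 2 vehicle forestomachs and no vehicle lung or liver, and its mean log2 ratios of −0.14, −0.04 and −0.10 give no order.

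**Figure D1:**
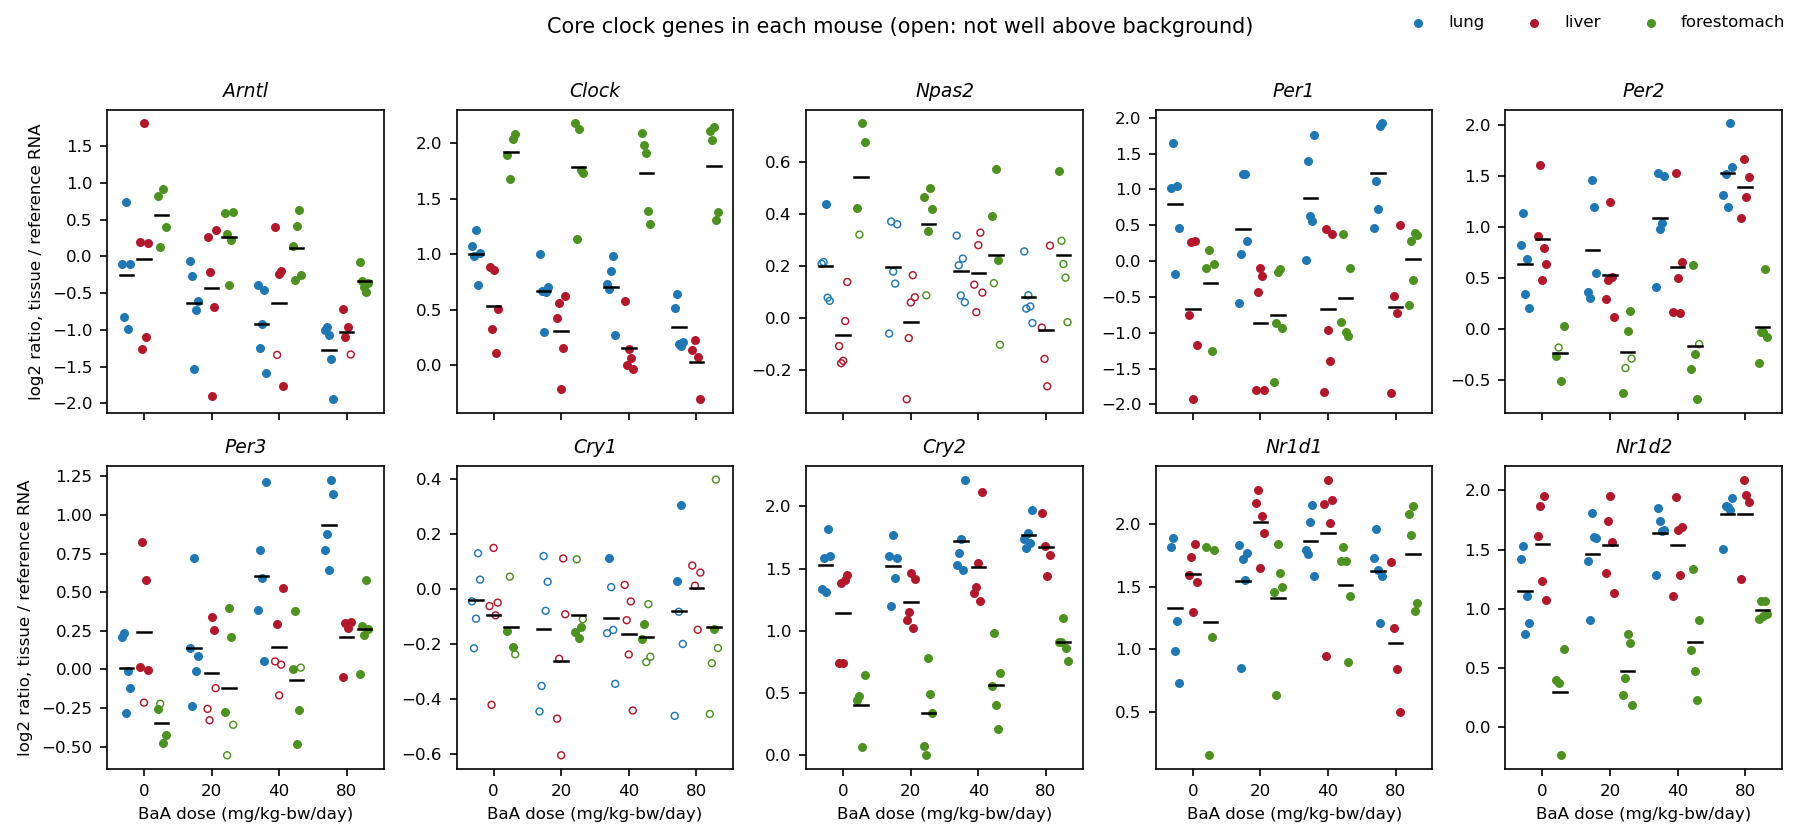
Log2 ratio of tissue RNA to reference RNA (vertical axis, 1 panel per gene with its own scale) against BaA dose in mg/kg-bw/day, with 1 point per mouse, colour for tissue, open points for values not well above background and black bars for group means. In lung, Clock at 80 mg/kg-bw/day lay at 0.17 to 0.64, below all 5 controls (0.72 to 1.22), and Per3 at 0.65 to 1.23, above all 5 controls (−0.28 to 0.24).

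BaA was compared with vehicle to ask whether the clock genes changed with dose. In lung the activator Clock was lower and 3 repressors were higher at the top dose. Clock fell 1.57-fold, Per2 rose 1.85-fold, Per3 rose 1.90-fold and Nr1d2 rose 1.57-fold at D3 against D0. A member was called when limma's adjusted p was at most 0.05 and the fold change at least 1.5, the thresholds of the study. At D3 this gave 4 of the 8 members tested, where 1.88% of all probes were called. At D2 it was 0 of 8 (4 at unadjusted p under 0.05) with 0.556% of all probes, but 1 (Per3) without mouse 14. At D1 it was 0 of 8 (1 at unadjusted p under 0.05) with 0% of all probes. Unadjusted p was under 0.05 for 16% of all probes at D2 and for 7.46% at D1. The median change of the 8 members at D3 was 0.36, beside a median of 0 over all probes.

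The activator Clock had lung values of 1.08, 0.98, 1.22, 0.72 and 1.01 in D0 mice 1 to 5 and of 0.52, 0.64, 0.20, 0.17 and 0.21 in D3 mice 16 to 20. The groups did not overlap, and the change of −0.65 ± 0.14 (SE) had an adjusted p of 0.00592 by limma. Within the 3 slides it was −0.45, −1.04 and −0.66.

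Its partner Arntl, the activator without which the loop stops, had lung values of −0.10, −0.83, 0.74, −0.99 and −0.11 in D0 and of −1.0, −0.96, −1.08, −1.39 and −1.94 in D3. All D3 mice lay below the D0 mean, but D0 mouse 4 lay within their range. The change of −1.02 ± 0.32 (SE, 2.02-fold) had an adjusted p of 0.0503 and narrowly missed the call. Across 32 alternatives the adjusted p ran from 0.0272 to 0.952, and 9 of them, the authors' own log2 ratios (adjusted p = 0.0432) among them, called it. Within the slides the change was −0.52, −2.13 and −0.96.

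Among the repressors, Per2, which with PER1 forms the core of the repressor complex, was at 0.82, 1.13, 0.34, 0.69 and 0.20 in the D0 lungs and at 1.31, 1.52, 1.19, 2.01 and 1.59 in the D3 lungs. The groups did not overlap, and the rise of 0.89 ± 0.24 (SE) had an adjusted p of 0.027. It was 0.44, 1.67 and 0.95 within the slides. The call depended on single mice: without mouse 3, 5, 17 or 19 the adjusted p was 0.0694, 0.0708, 0.0566 and 0.0832, with changes of 0.77 to 0.89.

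Per3, a PER paralogue that is not needed for the rhythm itself and whose D-boxes are shown above, was at 0.21, 0.24, −0.28, −0.01 and −0.12 in the D0 lungs and at 0.77, 0.88, 0.65, 1.23 and 1.14 in the D3 lungs. Again no D3 mouse fell within the D0 range. The rise of 0.93 ± 0.19 (SE) had an adjusted p of 0.0048 and stayed called without any 1 mouse, at 0.85 to 1.00. Within the slides it was 0.60, 1.51 and 0.96.

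Nr1d2 encodes REV-ERB-beta, 1 of the pair of receptors that repress Arntl. It was at 1.42, 1.53, 0.79, 1.11 and 0.88 in the D0 lungs and at 1.504, 1.86, 1.86, 1.83 and 1.94 in the D3 lungs. Of the D3 mice, only mouse 16 lay within the D0 range, at 1.504 below the 1.53 of mouse 2. The rise of 0.65 ± 0.16 (SE) had an adjusted p of 0.0152 and was 0.21, 1.04 and 0.91 within the slides, and it fell to 0.56, under the 1.5-fold minimum, without D0 mouse 3. The paralogue Nr1d1 (REV-ERB-alpha) changed by 0.30 ± 0.22, Per1 by 0.43 ± 0.41 and Cry2, the second cryptochrome repressor, by 0.24 ± 0.13 at D3, with adjusted p of 0.271 or more. Their 95% intervals extended 0.45, 0.85 and 0.27 log2 units to each side. A call also needed the adjusted p and the 1.5-fold minimum, so changes somewhat larger than these half-widths could also go uncalled.

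Across all 4 dose groups the same genes and Arntl changed with dose in lung. The slope on dose passed limma's test for 5 of the 8 members, where 11.6% of all probes passed. Over the range of 80 mg/kg-bw/day the fitted change was −0.99 for Arntl (adjusted p = 0.0308), −0.59 for Clock (0.00614), 0.92 for Per2 (0.0103), 0.98 for Per3 (0.00149) and 0.62 for Nr1d2 (0.012). Mean Arntl went from −0.26 at D0 to −0.64, −0.92 and −1.27, and mean Per3 from 0.01 to 0.14, 0.60 and 0.93. The slope of Arntl missed the threshold without mouse 1, 3, 5, 19 or 20 (adjusted p of 0.052 to 0.0775). With the hour of killing not given, its part in the changes with dose was not tested.

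The lung results were checked against the samples and settings in doubt. Without the lungs of mice 5 and 16, Clock, Per3 and Nr1d2 stayed called at D3, and Per2 changed by 0.83 with an adjusted p of 0.0755. The slope of Arntl was −1.03 with an adjusted p of 0.0556. Median centring moved the median of all probes to 0.15 at D3 and 0.38 at D2. With it 0 of 8 members were called at D3 (3 at unadjusted p under 0.05). Clock was at −0.39, Per2 at 0.92, Per3 at 0.89 and Nr1d2 at 0.86 (adjusted p of 0.893 or more). The shares of all probes past either threshold under that setting are not reported here. With median centring and slide as a block, Per2, Per3 and Nr1d2 were called and Clock, at −0.39, was under the 1.5-fold minimum. The reference channel by itself gave no call for any member (adjusted p of 1 for all 8 at lung D3).

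In the reported fit neither liver nor forestomach had a called member at any dose. In liver, limma called 0 of 8 members at D1, D2 and D3, where 0.241%, 0.588% and 0.434% of all probes were called. At unadjusted p under 0.05 there were 0, 1 and 3 members, beside 7.52%, 12.8% and 15% of all probes. In forestomach limma called 0 of 10 at each dose, where 0%, 0.0124% and 0.0248% of all probes were called. At unadjusted p under 0.05 there were 0, 2 and 5 members, beside 4.42%, 3.29% and 5.11% of all probes. By the dose slope, 0 of 8 members passed in liver (0.676% of all probes) and 0 of 10 in forestomach (0.0248%). At unadjusted p under 0.05 there were 3 members in liver (15% of all probes) and 4 in forestomach (5.24%).

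The D3 change of Arntl did not pass the test in either tissue. In liver it was at 0.20, −1.26, 1.81, −1.09 and 0.18 in the D0 mice and at −0.72, −1.10, −0.96 and −1.33 in the 4 D3 mice. The D0 livers were spread more widely than the D3 livers, of which all but mouse 19 fell within the D0 range, and the change of −0.997 ± 0.55 (SE) had an adjusted p of 0.423. It was −0.54 without vehicle mouse 3 and −2.10 with Agilent's processed signals (adjusted p of 0.198 to 0.714 over all alternatives). In forestomach Arntl was at 0.82, 0.12, 0.92 and 0.40 in D0 mice 1 to 4 and at −0.07, −0.33, −0.42, −0.48 and −0.35 in the D3 mice. Here the groups did not overlap, and the change of −0.90 ± 0.22 (SE) had an unadjusted p of 0.000786 and an adjusted p of 0.473.

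Other members of the loop had like values in forestomach, again without a call. At D3 Per3 changed by 0.61 ± 0.19, Nr1d2 by 0.69 ± 0.20 and Cry2 by 0.50 ± 0.17 (SE), with unadjusted p of 0.00473, 0.0027 and 0.00696 and adjusted p of 0.681 or more. For each of these 3 genes no D3 value fell within the D0 range. With the glandular stomach marker level as a covariate, added after the data were seen, the D3 changes were −0.87 for Arntl, 0.59 for Per3, 0.72 for Nr1d2 and 0.56 for Cry2 (adjusted p of 0.345 or more). With the fat marker level in its place they were −0.88, 0.70, 0.82 and 0.60 (adjusted p of 0.485 or more).

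Clock, called in lung, was at −0.51 ± 0.18 (SE) at D3 in liver (adjusted p = 0.191) and at −0.13 ± 0.23 in forestomach (adjusted p of 1). In forestomach its 5 lowest values, 1.13, 1.27, 1.30, 1.38 and 1.39, came from mice 7, 15, 19, 20 and 14, whose glandular stomach marker levels were 6.95, 6.67, 6.41, 6.76 and 6.97. Mice 2, 6, 8, 9 and 10, with marker levels of 5.37 to 6.48, had Clock at 1.68 to 2.18. Mice 7, 15, 19 and 20 were on 1 slide, together with mice 2 and 10, at 1.68 and 1.73. On that slide 38.4 to 42.1% of spots were above background, against 52.4 to 69.2% on the other forestomach slides. Slide and glandular content thus overlapped in these samples, and their parts were not separated. The part of the glandular content in the values of Clock was not tested beyond the covariate, with which its D3 change was 0.08. Npas2, tested only there, changed by −0.30 ± 0.14 (unadjusted p = 0.0455, adjusted p = 0.973) and was above background on 3 of 4 D0 but 1 of 5 D3 arrays. Cry1 changed by 0.00 ± 0.13.

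In liver, Cry2 and Nr1d1 had the lowest unadjusted p values beside Clock. Cry2 was at 0.74, 1.39, 0.74, 1.41 and 1.45 in D0 and at 1.95, 1.68, 1.44 and 1.61 in D3, a change of 0.52 ± 0.18 (SE, adjusted p = 0.177). It was called with the slide as a block (0.59, adjusted p = 0.015) and with Agilent's processed signals (0.60, adjusted p = 0.0434), its adjusted p over 30 alternatives ran from 0.015 to 0.835, and its reference channel moved by −0.21 ± 0.06 in the same comparison (adjusted p = 0.196). Nr1d1 stood at 1.59, 1.74, 1.30, 1.84 and 1.54 in D0 and at 1.70, 1.17, 0.84 and 0.50 in D3. Its change of −0.55 ± 0.25 (adjusted p = 0.299) was of the opposite sign to its 0.30 in lung and 0.55 in forestomach, with mouse 16 inside the D0 range and the other 3 D3 livers below it. These values depended on single mice, being −0.37 in liver without mouse 19, 0.15 in lung without mouse 5 and 0.19 in forestomach without mouse 2.

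**Figure D2:**
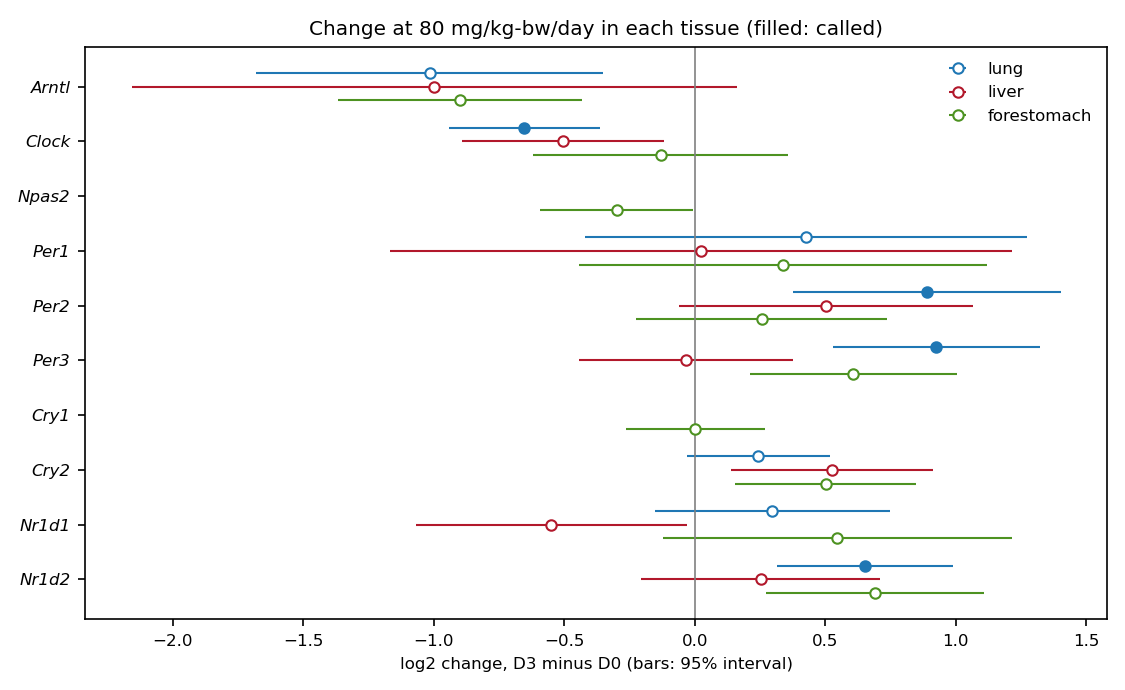
Change of each gene at 80 mg/kg-bw/day against vehicle in log2 units (horizontal axis) with its 95% interval, by tissue, with filled points for calls. Arntl lies at −1.02, −0.997 and −0.90 in lung, liver and forestomach with intervals of unequal width, and the 4 filled points are all lung.

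A model of all 12 groups with an interaction term asked if the D3 change was unequal between tissues. Between lung and liver, limma called 1 of 8 members, Per3, with 2.06% of all probes called. Its change was 0.93 in lung and −0.03 in liver, a difference of 0.96 ± 0.28 (SE, adjusted p = 0.0458). In liver the Per3 signal was near background, above it on 12 of 19 arrays, among them 4 of 5 at D0 and 4 of 4 at D3. The call of Per3 was at the edge of the threshold. Over 32 alternatives the difference stayed at 0.87 to 1.18, but its adjusted p ran from 0.0076 to 0.589. Of these alternatives 18 lost the call, 13 of the 20 that left out a mouse among them. With the mouse as a block of 1 shared correlation it was 0.96 with an adjusted p of 0.029, and with the tissue difference taken within each mouse it was 0.91 ± 0.19 (SE) with an adjusted p of 0.0076.

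Between lung and forestomach 0 of 8 members were called (0.257% of all probes), and between liver and forestomach 0 of 8 (0.0453%). At unadjusted p under 0.05 there were 0 members (8.38% of all probes) and 2 members (6.92%). For Arntl the differences were −0.02, −0.12 and −0.10 with 95% half-widths of 1.17, 1.17 and 1.2. With the differences taken within each mouse they were 0.15, −0.08 and −0.05 with half-widths of 0.58, 0.50 and 0.92, so differences within those limits stay possible. For Clock, lung minus forestomach was −0.52 with a half-width of 0.55, and for Nr1d1 liver minus forestomach was −1.10 with a half-width of 0.80 (unadjusted p = 0.00795, adjusted p = 0.458).

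Several members varied widely among mice of one dose group, and mice high or low in one tissue tended to be so in another. In liver the SD of Arntl among the 5 vehicle mice was 1.24 log2 units and that of Per1 was 0.95. Vehicle mouse 3 had the highest Arntl of its group in lung (0.74), liver (1.81) and forestomach (0.92), and the lowest Per1 in all 3 (−0.18, −1.93 and −1.26). Among D1 mice, mouse 8 had the lowest Arntl in all 3 tissues (−1.53, −1.90 and −0.38).

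To measure this, each member's values were centred on their dose group and correlated between tissues of the same mouse, over 19 mice for lung with liver, 19 for lung with forestomach and 18 for liver with forestomach. Mice were permuted within dose groups 100000 times (two-sided), and p values were adjusted over the 24 relations that could be computed. Of these, 16 had r of at least 0.5, and the same 16 had an adjusted p of at most 0.05. By Spearman's rho 15 passed, the exception being Nr1d2 in lung and liver (rho 0.51, adjusted p = 0.0716). The 16 were 7 of 8 members for lung and liver, where 6.96% of all probes reached r of 0.5, 4 of 8 for lung and forestomach (5.68% of all probes) and 5 of 8 for liver and forestomach (5.27%).

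Per1, a PER gene that also answers acute signals, was the most alike across tissues among the members by its lowest r. It gave r of 0.89 (Spearman rho 0.87) for lung and liver, 0.91 (0.91) for lung and forestomach and 0.88 (0.87) for liver and forestomach, with adjusted p of 0.00024, 0.00016 and 0.00016 for r. Without the 2 mice farthest from the median in the first tissue of the pair, r was 0.87, 0.90 and 0.84. Mice far out in the other tissue alone were kept, here and for the members below. Within the slides of the first tissue, which held at least 5 of these mice each, r was 0.70 to 0.98 for lung and liver, 0.92 to 0.99 for lung and forestomach and 0.83 to 0.96 for liver and forestomach.

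Arntl gave r of 0.94 (rho 0.86) for lung and liver, 0.76 (0.78) for lung and forestomach and 0.84 (0.91) for liver and forestomach, with adjusted p of 0.00016, 0.00465 and 0.00158. Without the 2 farthest mice, vehicle mouse 3 being at one end, r was still 0.91, 0.68 and 0.82. With slide removed as well as dose it was 0.85, 0.75 and 0.77, and within the slides it was 0.55 or more for each pair.

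Per2 and Per3 followed, with r of 0.75, 0.70 and 0.69 for Per2 and 0.59, 0.60 and 0.66 for Per3 in the same order (adjusted p of 0.0394 or less). Without the 2 farthest mice r was 0.67, 0.72 and 0.50 for Per2 and 0.43, 0.53 and 0.72 for Per3, so that for Per3 only liver and forestomach, and for Per2 the pairs with lung, kept an adjusted p under 0.05. Within slides Per2 ran from 0.36 to 0.92 and Per3 from 0.52 to 0.79. The lung and forestomach relation of Per3 was 0.59 without the lungs of mice 5 and 16 (adjusted p = 0.0537).

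The other members were correlated between some pairs of tissues and not others. Clock gave r of 0.63 for lung and liver (adjusted p = 0.0152), 0.25 for lung and forestomach and 0.12 for liver and forestomach. Without the 2 farthest mice its lung and liver r was 0.52 (adjusted p = 0.0637), and within slides it was 0.28 to 0.86. Cry2 gave 0.80 for lung and liver (adjusted p = 0.00422, 0.78 without the 2 farthest mice), 0.44 and 0.35, and the first of these was 0.42 with slide removed (adjusted p = 0.0856) though 0.70 to 0.97 within the slides. Nr1d2 gave 0.71 for liver and forestomach (adjusted p = 0.00491), 0.54 for lung and liver (0.0486) and 0.42 for lung and forestomach (0.168), and its lung and liver r was 0.41 without the lungs of mice 5 and 16 (adjusted p = 0.235) and −0.07 within 1 of the slides.

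Nr1d1 passed for no pair of tissues, with r of 0.18 for lung and liver, 0.18 for lung and forestomach and −0.06 for liver and forestomach, and adjusted p of 0.458 or more. Within slides its r varied widely, from −0.43 to 0.66. Its probe was above background on all arrays. Whether its r differed from that of other members was not tested.

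**Figure D3:**
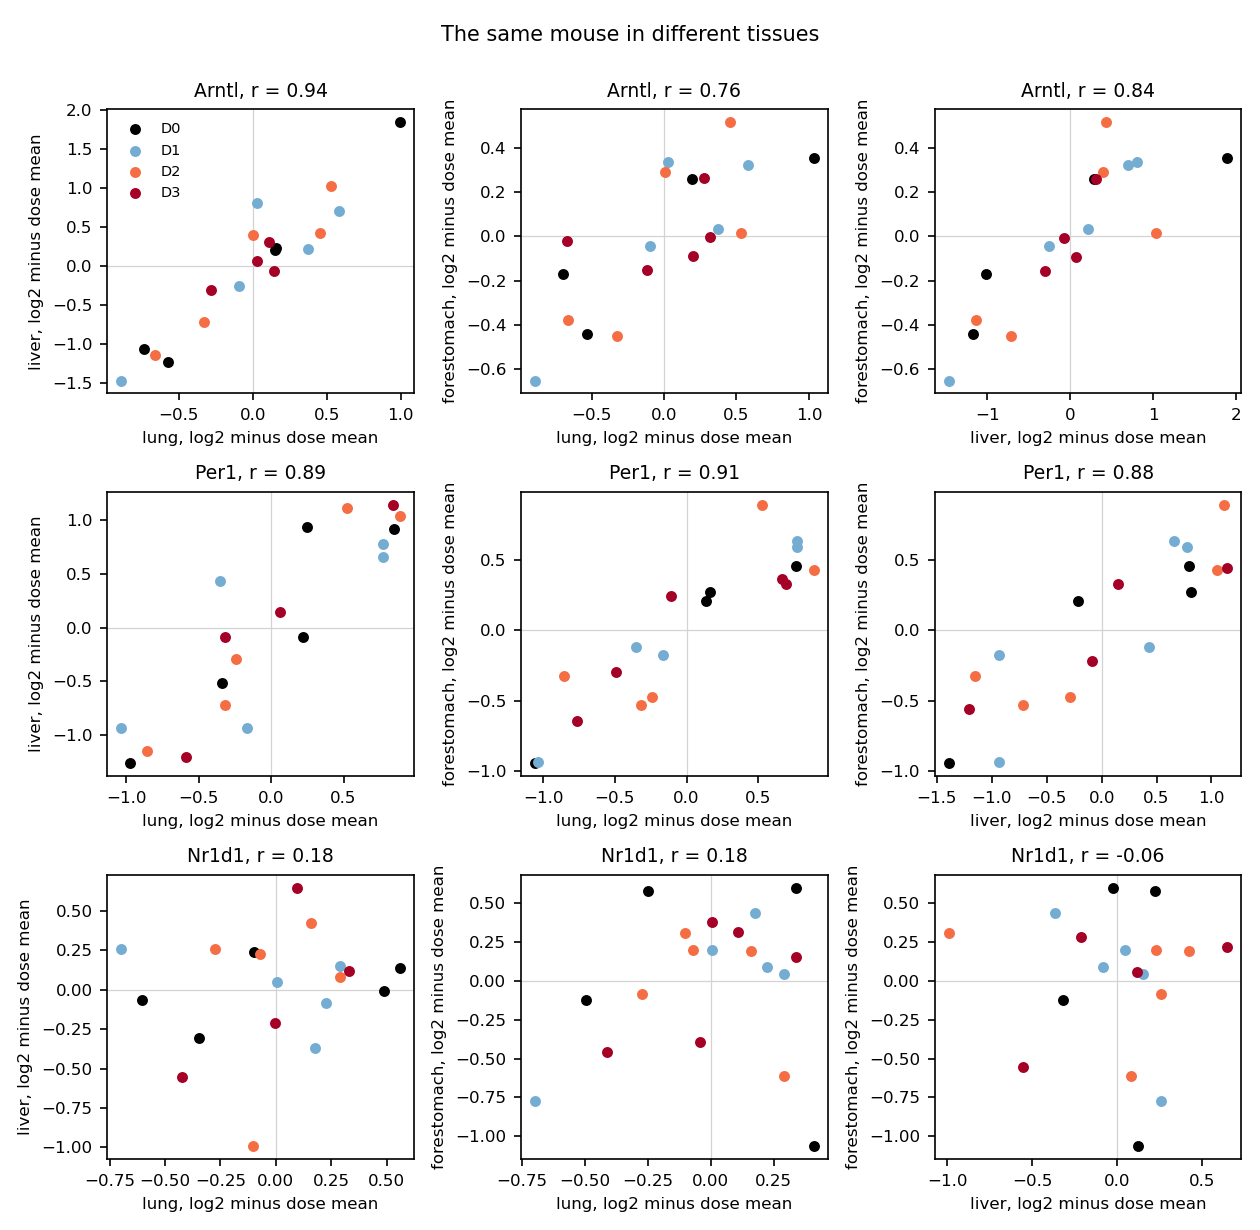
Value of Arntl, Per1 and Nr1d1 in one tissue against another tissue of the same mouse, each as log2 ratio minus the mean of its dose group, with 1 point per mouse and colour for dose group. Arntl and Per1 lie along rising lines (r of 0.76 to 0.94), while Nr1d1 shows no line (r of −0.06 to 0.18).

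Within a tissue, mice with more Arntl mRNA had more Clock in lung and liver and less of most repressors in all 3 tissues. Each other member was correlated with Arntl over the mice of a tissue in the same way, with 23 relations computed, over 20 mice in lung and 19 in liver and forestomach. These pairs of values come from the same array, unlike those between tissues. At r of at most −0.5 there were 5 of the 7 members in lung (2.88% of all probes), 5 of 7 in liver (9.6%) and 5 of 9 in forestomach (1.32%), namely Per1, Per2, Per3, Cry2 and Nr1d2 each time. At r of at least 0.5 there was 1 of 7 in lung (3.05% of all probes), 1 of 7 in liver (7.68%) and 0 of 9 in forestomach (1.53%), namely Clock in the first 2 tissues. In all 17 relations had an adjusted p of at most 0.05 for r and 16 for rho, Cry2 in liver being the exception (rho −0.48, adjusted p = 0.0902).

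Clock and Arntl gave r of 0.80 in lung (rho 0.81, adjusted p = 0.00046) and 0.82 in liver (rho 0.82, adjusted p = 0.00046), and 0.03 in forestomach (rho 0, adjusted p = 0.959). Without the 2 mice farthest from the median in Arntl, here and below the only gene used to pick them, the first 2 were 0.75 and 0.78. Within slides they were 0.69 to 0.87 and 0.78 to 0.93. In forestomach r was −0.12 with the glandular stomach marker level as a covariate. Npas2 gave 0.49 there (adjusted p = 0.0718).

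Per1 was opposed to Arntl with r of −0.86 in lung, −0.87 in liver and −0.79 in forestomach (adjusted p of 0.00023, 0.00023 and 0.00135). Within slides r was −0.80 or lower in every tissue. Per2 gave −0.73, −0.76 and −0.69 and Per3 −0.75, −0.87 and −0.73 (adjusted p of at most 0.0029), and without the 2 farthest mice these were −0.65 or lower. Cry2 gave −0.74, −0.58 and −0.77, of which the liver value was weaker without the 2 farthest mice (−0.46, adjusted p = 0.164) and with slide removed (−0.53, adjusted p = 0.0826).

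Nr1d2 gave −0.63 in lung (adjusted p = 0.019), −0.75 in liver (0.00153) and −0.81 in forestomach (0.00135). Its lung r was −0.50 without the 2 farthest mice (adjusted p = 0.0575) and −0.74 with slide removed. Nr1d1, which carries the E-prime letters printed above and encodes the other receptor of the pair, gave −0.10, 0.14 and −0.01 (adjusted p of 0.656 or more). Within slides its r ran from −0.79 in forestomach to 0.80 in liver. Cry1 gave −0.18 in forestomach, the one tissue where it was tested.

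**Figure D4:**
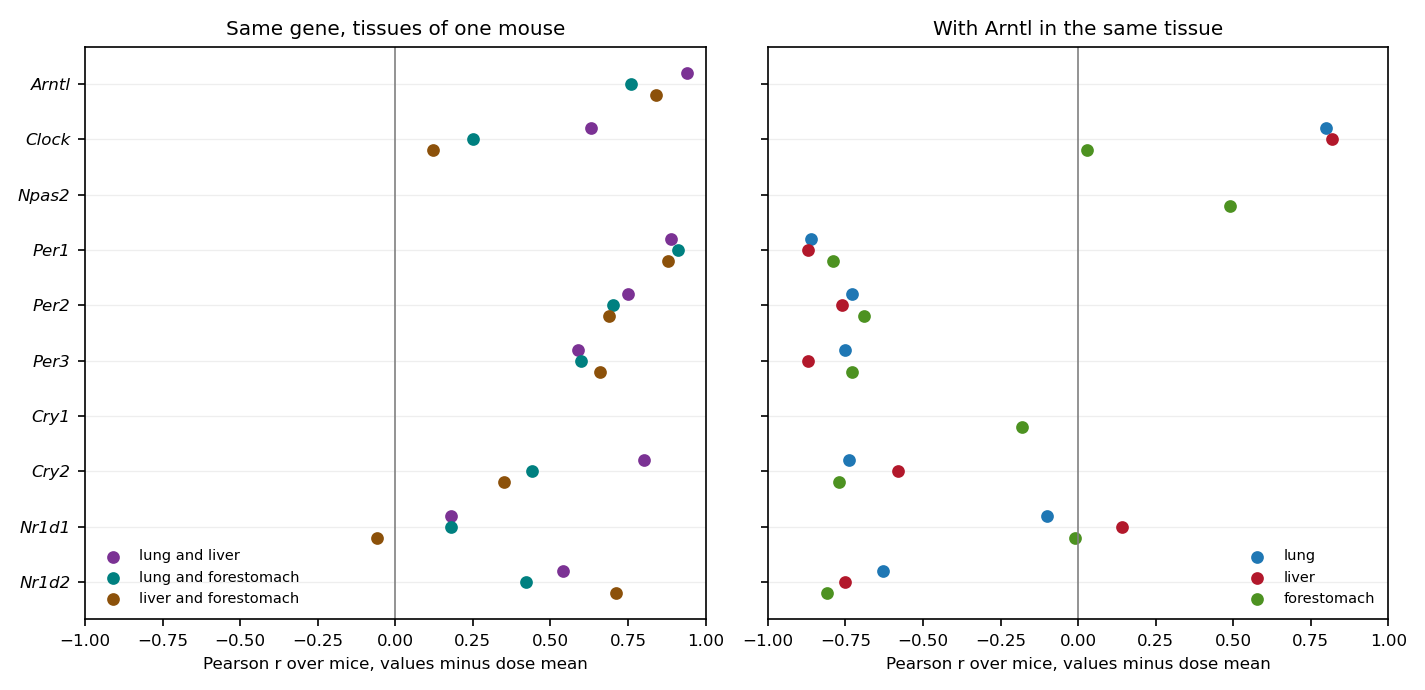
Pearson r over mice, on values minus the dose group mean, for each gene between tissues of the same mouse (left, colour for the pair of tissues) and with Arntl in the same tissue (right, colour for tissue). On the left Arntl and Per1 lie at 0.76 to 0.94 and Nr1d1 near 0, and on the right Per1, Per2, Per3, Cry2 and Nr1d2 lie at −0.87 to −0.58.

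Among 11494 other genes tested in all 3 tissues, those whose dose-centred pattern over the 58 arrays was most opposed to Arntl included further clock genes. The 5 lowest were Tef (r = −0.86), Por (−0.85), Dbp (−0.84), Usp2 (−0.83) and Ciart (−0.80), given as a description. Per1, at −0.84 by the same measure, lay among them. Within forestomach Por was at −0.36 and Usp2 at −0.41, while Tef, Dbp and Ciart were at −0.85, −0.72 and −0.87. Tef and Dbp encode PAR bZIP factors of the clock's output, which bind D-box letters, and Por encodes the electron donor of microsomal cytochromes P450. Among the most alike were Ran (0.73), Tubb2a-ps2 (0.67), Tubb2a (0.67) and Piga (0.66). The last 3 were close in liver (0.81 to 0.90) and less so in lung (0.13 to 0.32). Within forestomach r was 0.35 for Ran, 0.11 for Tubb2a-ps2, −0.04 for Tubb2a and 0.42 for Piga. The 2 tubulin entries are a gene and its pseudogene and may share signal.

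The genes nearest to Nr1d1 were others than those nearest to Arntl. The 5 most alike were Lrch1 (0.77), Lztr1 (0.75), Slu7 (0.75), Nop53 (0.73) and Atl3 (0.73). Their r was 0.86 to 0.95 within forestomach, 0.33 to 0.89 within lung and 0.31 to 0.69 within liver. The 5 most opposed were H13 (−0.72), Ptgds (−0.71), Prdx3 (−0.70), Aprt (−0.69) and Samd1 (−0.69). Their r was −0.93 to −0.72 within forestomach, −0.75 to −0.33 within lung and −0.63 to −0.57 within liver. The members nearest to Nr1d1 were Clock at 0.49 and Cry2 at 0.33 over all arrays. These patterns are over arrays that share their tissue and slide, so no test is given.

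Other genes of the pathway were counted in fixed lists. Of 9 output and other E-box driven genes tested, 3 were called higher and 0 lower in lung at D3, where 1.88% of all probes were called. The median change of the 9 was 0.44, beside 0 over all probes. With their SE, the 3 called were Dbp (1.79 ± 0.34, adjusted p = 0.00298), Tef (0.86 ± 0.23, 0.0206) and Ciart, a repressor of CLOCK and ARNTL (0.86 ± 0.24, 0.0254). In liver and forestomach 0 of 9 were called at D3, where 0.434% and 0.0248% of all probes were. The medians there were 0.59 and 0.47, with Dbp at 1.25 and 1.83. Of the opposite-phase and loop genes, 1 of 3 tested in lung was called, Nfil3, which represses through D-box letters, lower by 0.97 ± 0.15 (adjusted p = 0.000808). Of 7 kinases, ligases and partners tested, such as the casein kinases that mark PER proteins for breakdown, 0 were called at any dose in any tissue. At most 1.88% of all probes were called in these comparisons.

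Signals known to act on clock genes were counted the same way. The shares of all probes called at D3 were again 1.88% in lung, 0.434% in liver and 0.0248% in forestomach. Of 7 glucocorticoid-responsive genes 0 were called at D3 in lung (median −0.37), liver (0) or forestomach (0). At D2 in liver 1 was called, where 0.588% of all probes were. It was Zbtb16 at −1.84 (adjusted p = 0.0156), which was −1.52 at D3 (adjusted p = 0.0588). Of the immediate early genes 0 were called at any dose in any tissue, with a median of −0.20 at lung D3. Of 6 heat shock genes tested, 5 were called lower in lung at D3 (median −1.22), 1 in liver (−0.27) and 1 in forestomach (−1.07). Their part in the changes of the clock genes was not tested.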

How the data were processed

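Each Agilent array compared tissue RNA of 1 mouse (Cy5) with a commercial reference RNA (Cy3), without dye swaps. Per the file headers, the deposited scanner files hold linear spot intensities read with Feature Extraction 10.7.3.1. A second deposited table holds the authors' own LOWESS-normalised log2 values and served as an alternative. Its correlation with the ratios computed here was 0.995 to 0.998 per array, with column medians of −0.04 to −0.02.

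Median signals without background correction were normalised by loess within each array. Outlier spots (0.495% of 59305 gene spots) were left out. Symbols came from a RefSeq table (GRCm38.p6), and 26413 of 55681 probes matched. No 2 arrays held identical values (0 pairs). The number of arrays and the spots above background limit the precision.

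Dose groups were compared with limma 3.58.1 in R 4.3.3, with all arrays of a tissue in one fit. The study used MAANOVA, which was not installed. Probes numbered 30383 in lung, 22789 in liver and 32318 in forestomach. Correlations used Python 3.11.15. Scripts were tested on simulated data. The members, lists and rules were chosen with earlier results of these data known. All members are named, and the nearest genes are the 5 highest and 5 lowest r, of which 1 is not reported here. Tissues are paired by mouse number, which the labels give, and the consensus correlation within mouse was 0.052. Each tissue was run on 3 slides that all held every dose group. Alternatives covered background correction, normalisation, slide, filter, threshold, mouse block and leaving out mice.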

Additional observations from a re-analysis of the deposited data

Results flagged for a closer look

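Between tissues, the D3 change that differed past the threshold was that of Per3. It was 0.96 log2 units higher in lung than in liver by limma's interaction test (adjusted p = 0.0458). Per3 was above background on 12 of 19 liver arrays.

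In 6 of 104 groups of 4 or 5 mice, 1 mouse lay far from the rest by Dixon's test at the 95% level, which chance alone gives in about 1 in 20 groups. In D1 lungs, Nr1d1 was at 0.85 in mouse 7 with the next value at 1.55. In D3 lungs, Nr1d2 was at 1.504 in mouse 16, whose lung also held squamous and skeletal muscle markers, with the next value at 1.83. In D2 livers, Clock was at 0.58 in mouse 11 with the next value at 0.14, and Nr1d1 at 0.94 in mouse 12 with the next at 2.02. In D3 livers, Per3 was at −0.047 in mouse 16 with the next at 0.27. In D1 forestomachs, Cry1, near background, was at 0.11 in mouse 7 with the next at −0.11.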

How the results depend on the processing

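Alternatives were run on the counts and values of the members, not on the gene lists, nearest genes or promoters, and 5 were added after the data were seen (median centring with slide as a block, leaving out the lungs of mice 5 and 16, the glandular stomach and fat covariates, and tissue differences within each mouse). The shares of all probes called under these alternatives are not reported here. The counts below therefore do not show whether the members lost or gained calls more than other probes. Called members at lung D3 were 4 in the reported fit, 0 with median centring, and 2 to 5 with 1 mouse left out, 2 being without D0 mouse 3 (Clock and Per3). At lung D2 they were 3 with median centring and slide as a block, and 0 to 1 with 1 mouse left out, 1 being Per3 without mouse 14. Lung slopes were 0 with median centring and 4 to 5 with 1 mouse left out. Liver D3 and liver slope calls were each 1 (Cry2) with Agilent's processed signals and with slide as a block. The call of Per3 between lung and liver was lost (0) with Agilent's processed signals, median centring, slide as a block, no filter on dim probes, and without the lungs of mice 5 and 16. With median centring and slide as a block there were 2 (Nr1d1 and Per3), and with 1 mouse left out 0 to 1. Vehicle differences for lung and liver numbered 3 with Agilent's processed signals, 2 with slide as a block, 3 without the fold minimum, and 4 with median centring and slide as a block. For lung and forestomach they numbered 2 under median centring with or without the slide block. For liver and forestomach they numbered 2 with median centring and 3 with slide as a block. For liver minus forestomach the sign turned for Cry2 (−0.10) and Per3 (−0.03) with median centring, and for Cry2 (−0.92), Nr1d2 (−0.23) and Per3 (−0.23) when slide was a block too. The cause was not tested. With the mouse number as a replicate block, 4 members were called at lung D3 and 5 vehicle differences between lung and forestomach, Per1 being added. No other call changed under the mouse block. With tissue differences taken within each mouse, 6 members differed between vehicle lung and forestomach, Arntl and Per1 added, and the call of Per3 between lung and liver was kept. Of 24 same-mouse relations 12 to 17 held across the alternatives, and of 23 relations with Arntl 16 to 18. Members near background (Npas2 and Cry1) limit what can be said of them, and 4 or 5 mice a group left intervals of up to 1.2 log2 units on each side for Arntl.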
